A study of Homo sapiens with 12 samples.

Results

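Of 8 mRNAs that the literature names as targets of the IGF2BP family, only ACTB differed past the test's threshold in Input RNA upon knockdown of IGF2BP3 in HepG2 cells, where it fell by 0.24 on the log2 scale. With all libraries and edgeR, none of them passed it in ribosome footprints or in footprints relative to Input. The 8 genes were MYC, CD44, HMGA1, HMGA2, CDK6, CCND1, CCND3 and ACTB. They were picked by name, as reported IGF2BP target mRNAs in proliferation, and are 8 of the 58721 genes in the count tables. Of these, 7 had enough counts to be tested, and CD44 did not.

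The IGF2BP proteins are cytoplasmic RNA-binding proteins that carry RRM and KH domains and bind mRNAs mostly in the 3' UTR and the coding region. IGF2BP1 and IGF2BP3 are made in the embryo, are low in most adult tissues and are made again in many tumours, liver cancer among them, whereas IGF2BP2 is found in many adult tissues. Binding has been described to shield some mRNAs from decay or from microRNAs, to place ACTB mRNA within the cell, and to change translation. The listed genes fall into 4 roles. MYC is a transcription factor of growth genes, HMGA1 and HMGA2 bend and open chromatin, the D-type cyclins CCND1 and CCND3 with the kinase CDK6 drive passage through G1, and CD44 and ACTB act in adhesion and the cytoskeleton.

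HepG2 is an established human liver cancer line. IGF2BP3 was knocked down transiently with siIGF2BP3, siControl-transfected cells served as the control, and Input and RPF libraries were made from each condition, with 3 libraries in each of 4 groups. RPF libraries hold ribosome-protected fragments of 28 to 30 nt, isolated after RNase I digestion of lysates from cells given 100 µg/mL cycloheximide for 4 min. Input reports transcript abundance, but no separate library protocol was given for it. IGF2BP1 and IGF2BP2, which bind many of the same mRNAs, were not targeted. The labels do not say whether the libraries came from separate cultures, so p-values measure the spread between these libraries. In bulk RNA, fewer cells with an mRNA and less of it per cell cannot be told apart.

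Library totals ran from 11219750 to 14797573 counts in Input and from 13036423 to 31510601 in RPF. Levels are given as CPM, the gene's count scaled to a common library total. The targeted gene, IGF2BP3, fell by 0.39 in Input RNA and fell by 1.59 in RPF on the log2 scale (edgeR adjusted p = 1.06e-05 and 0.000301). Its Input RNA thus stayed at 0.762 of the siControl level after edgeR's TMM scaling. In RPF relative to Input it fell by 1.19 (edgeR adjusted p = 4.65e-07), a call lost in 1 of 26 alternatives. How far this partial loss of the transcript limits changes in other mRNAs was not tested. The siControl RPF replicates 2 and 3 differed by less than sampling noise (mean chi-square per gene of 0.941), and were counted as 1 sample in each mean ± SD, so n = 2 there. In the edgeR tests they entered as separate libraries, and the RPF and TE p-values and shares of genes called rest on that. With them summed, edgeR called 14 of 20790 genes in RPF, against 336 of 20192 in the main test. In TE it called 143 of 13495, against 291 of 13395. The siIGF2BP3 RPF replicate 1 stood apart from replicates 2 and 3 (19.9 and 21.6, against 1.15 between the latter), and its effect on the RPF and TE values is therefore given beside them. All 8 hepatocyte markers on a list of the labelled lineage were above 1 CPM in every group. Of 11 markers of fibroblasts, immune cells and endothelium, CD68, PDGFRB and PECAM1 exceeded 1 CPM, while DCN and CD3E had no count in any library. The summed level of those 11 markers was 31.6 to 35.9 CPM in siControl Input and 31.2 to 35.5 CPM in siIGF2BP3 Input.

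**Figure D1:**
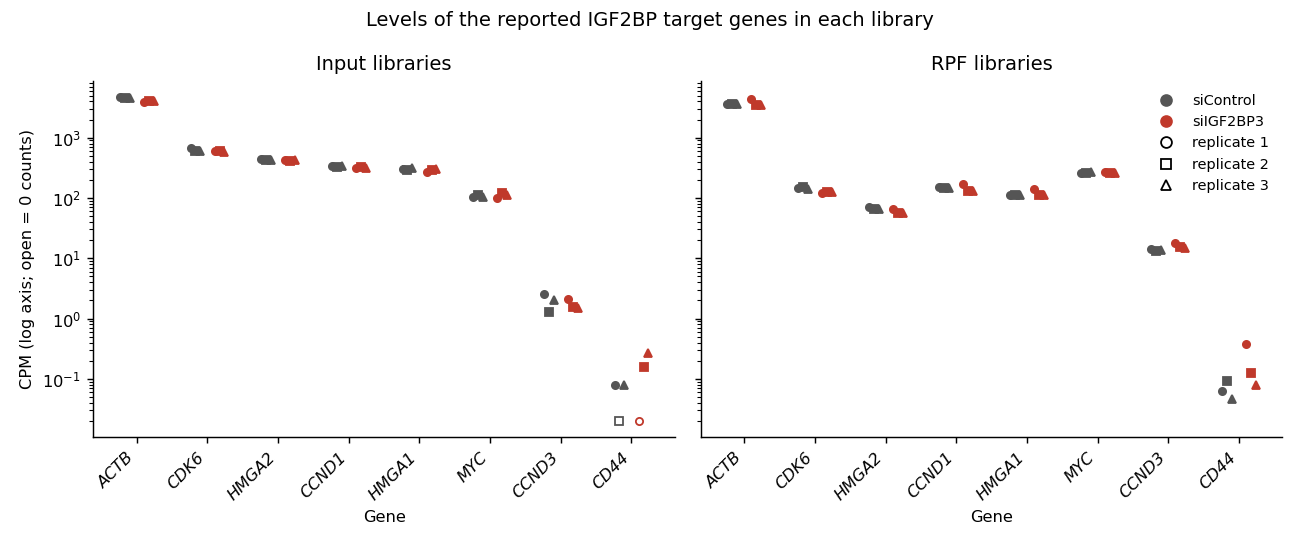
CPM on a log axis for each of the 8 genes in the Input (left) and RPF (right) libraries, with siControl in grey, siIGF2BP3 in red and a symbol for each replicate; open symbols at 0.02 mark libraries with no count. ACTB is the most counted gene in both assays, CD44 has at most 5 counts in any library, and the siControl and siIGF2BP3 points of a gene lie close together on this scale.

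MYC (ENSG00000136997), which encodes the transcription factor c-Myc, has an mRNA that IGF2BP1 binds at a coding-region determinant. Its Input level was 102, 111 and 106 CPM in siControl replicates 1, 2 and 3 and 99.2, 119 and 113 CPM in siIGF2BP3. The siIGF2BP3 libraries lay on both sides of the siControl ones, and the log2 fold change was 0.01 ± 0.06 (SE, edgeR adjusted p = 0.951). In RPF it was 261, 260 and 265 CPM in siControl against 270, 257 and 256 CPM in siIGF2BP3. Replicate 1 of siIGF2BP3 was above and replicates 2 and 3 below the siControl libraries, with a log2 fold change of 0.01 ± 0.05 (adjusted p = 0.944). Translation efficiency (TE), tested in edgeR as the change in RPF beyond that in Input, differed by 0.01 ± 0.08 (adjusted p = 0.982). Without siIGF2BP3 RPF replicate 1, RPF and TE differed by -0.0313 and -0.0328. Taking 2 SE on either side, the intervals of the difference were -0.11 to 0.13 in RNA, -0.09 to 0.11 in RPF and -0.16 to 0.18 in TE.

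Some genes around MYC were called in RNA, where 5.96% of all genes tested were called and 1.9% were called lower. Among 5 proteins of the complex that holds the MYC coding-region determinant, YBX1, a cold-shock domain RNA-binding protein, fell in RNA from 2474 ± 38.7 to 2274 ± 78.5 CPM (SD, n = 3 each; log2 fold change -0.17 ± 0.04, edgeR adjusted p = 0.0222). This call was lost without Input replicate 3 of siControl, and without replicate 2 or 3 of siIGF2BP3. None of the 11 tested dimerisation partners and antagonists of MYC was called in RNA, nor any of the 10 tested in RPF or TE, in edgeR over all libraries. Of 16 genes known to be driven by MYC, CAD, the enzyme that starts pyrimidine synthesis, rose in RNA by 0.31 ± 0.09 (adjusted p = 0.0287), and NCL, which encodes nucleolin, fell by 0.17 ± 0.04 on the log2 scale (adjusted p = 0.0170). The NCL call was lost without the same libraries as that of YBX1. Both genes are among those with a mean of at least 1000 CPM in Input, of which 40.2% were called lower. The CAD call was lost without any of the 3 siControl Input libraries or siIGF2BP3 Input replicate 2, with DESeq2 and with a length offset. DESeq2 and the length offset each called none higher and 4 lower of the 16 in RNA. No gene of the 16 was called in RPF or TE by edgeR over all libraries.

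HMGA2 (ENSG00000149948, hg38 chr12:65824131-65966295, plus strand) and HMGA1 (ENSG00000137309, hg38 chr6:34236873-34246231, plus strand) encode small AT-hook proteins that bind the minor groove of AT-rich DNA. HMGA2 is a classical target of the let-7 microRNAs, and IGF2BP proteins have been reported to keep let-7 away from it. The sites are printed here because they set HMGA2 apart from the other listed genes in sequence. The 3' UTR of the GENCODE canonical HMGA2 transcript, 2999 bases long, holds 4 matches to the let-7 seed on the mRNA strand, and that of HMGA1, 1347 bases long, holds 1. The 3' UTRs of the other 6 genes hold none. Of 18352 canonical 3' UTRs, 10.3% have such a match. Among 2825 3' UTRs whose length was within 25% of that of HMGA2's, 14.9% have a match and 0.0708% have at least 4. The seed, bases 2 to 8 of the microRNA, is in capitals in 2 let-7 family members (RefSeq, GRCh38.p14), and its complement, CTACCTC, is in capitals in each site, all in exonic 3' UTR.
hsa-let-7a-5p: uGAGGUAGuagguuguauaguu
hsa-let-7b-5p: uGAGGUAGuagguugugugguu
HMGA2, chr12:65963298-65963319: gccaacgttcgatttCTACCTC
HMGA2, chr12:65964533-65964554: ccccactactcaataCTACCTC
HMGA2, chr12:65964945-65964966: ttgacttgcaaagacCTACCTC
HMGA2, chr12:65965798-65965819: aatcaaaacacactaCTACCTC
HMGA1, chr6:34245829-34245850: tcctctgttcacaaaCTACCTC

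HMGA2 RNA stood at 435, 423 and 426 CPM in the siControl libraries, against 422, 415 and 424 CPM after the knockdown. The groups overlapped at siControl replicate 2, and the log2 fold change was -0.07 ± 0.04 (edgeR adjusted p = 0.330). Its footprints were 69.9, 66.4 and 64.7 CPM in siControl, against 65.8, 57.2 and 57.2 CPM in siIGF2BP3. The siIGF2BP3 replicates 2 and 3 lay below every siControl library, whereas replicate 1 fell within the siControl range. Over all 6 RPF libraries the log2 fold change was -0.14 ± 0.08 (adjusted p = 0.436). Without siIGF2BP3 RPF replicate 1 it was -0.23 ± 0.03 (adjusted p = 0.00133), a call made for 16.5% of all genes tested in that setting. TE differed by -0.07 ± 0.08 (adjusted p = 0.726), with an interval of -0.23 to 0.09, and by -0.15 ± 0.05 (adjusted p = 0.0751) without that replicate.

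HMGA1 Input was 306, 287 and 309 CPM in siControl and 268, 294 and 303 CPM in siIGF2BP3. These groups overlapped, with a log2 fold change of -0.11 ± 0.05 (edgeR adjusted p = 0.194). HMGA1 footprints were 112, 112 and 114 CPM in siControl, against 139, 110 and 112 CPM in siIGF2BP3. Replicate 1 of siIGF2BP3 was far above the siControl libraries, replicate 2 slightly below them and replicate 3 among them. The log2 fold change was 0.11 ± 0.10 over all libraries (adjusted p = 0.672) and -0.02 ± 0.03 without that replicate (adjusted p = 0.694). TE differed by 0.22 ± 0.11 (adjusted p = 0.345), and by 0.0933 ± 0.06 without it (adjusted p = 0.369). The RPF value of HMGA1 is uncertain, since 8 genes named as its pseudogenes together held 50.8 CPM in siControl RPF, or 45.0% of HMGA1's own value, against 0.0965% in Input, and 7 of them carried fractional counts. Among the 10 chromatin proteins of the HMG families, both HMGA genes included, edgeR with the main settings called none in RNA, RPF or TE. The same held for the 10 genes tested of the let-7 and LIN28 axis, HMGA2 included. In RNA the length offset called 1 HMG gene and 2 genes of the let-7 axis lower, and 1 gene of that axis was called higher with a mean of at least 5 CPM, with protein-coding genes only, with the replicate block and without siIGF2BP3 Input replicate 2. Without siControl Input replicate 1, 1 HMG gene was called lower. In RPF, 1 gene of each list was called lower with DESeq2 and in edgeR with no filter. In TE, 1 HMG gene was called lower without siIGF2BP3 RPF replicate 3.

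CDK6 (ENSG00000105810, hg38 chr7:92604921-92836594, minus strand), the kinase that pairs with D-type cyclins to phosphorylate RB, was the 1 tested member whose footprints were below the siControl range in every siIGF2BP3 library. Its RPF level was 149, 150 and 143 CPM in siControl and 123, 124 and 128 CPM in siIGF2BP3. The highest siIGF2BP3 library was thus below the lowest siControl one, an order in either direction seen in 25.7% of the genes tested in RPF, and in the downward direction in 14.8%. The log2 fold change was -0.22 ± 0.04, equal to 0.858 of the siControl level after edgeR's TMM scaling, and missed the threshold in edgeR (adjusted p = 0.0614). It passed with DESeq2 (-0.22 ± 0.06, adjusted p = 0.00796), where 3.3% of genes were called, and without siIGF2BP3 RPF replicate 1 (-0.23 ± 0.03, adjusted p = 0.000718), where 16.5% were. It did not pass in the other 15 alternatives. The edgeR adjusted p was 0.245 when siControl RPF replicates 2 and 3, counted as 1 sample only in the means, were summed. It was 0.246 to 0.289 without any one siControl RPF library. The difference itself was -0.20 to -0.24 in these settings. CDK6 Input was 677, 598 and 607 CPM in siControl and 600, 602 and 569 CPM in siIGF2BP3. The Input groups overlapped through siControl replicate 2, and the log2 fold change was -0.13 ± 0.05 (edgeR adjusted p = 0.0980). TE differed by -0.08 ± 0.07 (adjusted p = 0.625), with an interval of -0.22 to 0.06, and by -0.09 ± 0.06 without replicate 1 of siIGF2BP3 RPF.

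CCND1 (ENSG00000110092, hg38 chr11:69641087-69654474, plus strand) encodes cyclin D1. Input was 342, 325 and 335 CPM in siControl and 317, 325 and 318 CPM in siIGF2BP3. The siIGF2BP3 values were in the lower part of the range, with overlap at replicate 2 of both groups, and the log2 fold change was -0.11 ± 0.04 (edgeR adjusted p = 0.147). Footprints were 151, 147 and 146 CPM in siControl, against 171, 131 and 133 CPM in siIGF2BP3. Here siIGF2BP3 replicate 1 was above every siControl library while replicates 2 and 3 were below every one. The RPF log2 fold change was therefore -0.01 ± 0.12 over all libraries (adjusted p = 0.990) and -0.17 ± 0.03 without replicate 1 (adjusted p = 0.00150). TE differed by 0.09 ± 0.12 (adjusted p = 0.751), and by -0.0538 ± 0.05 without replicate 1 (adjusted p = 0.560). The CCND1 3' UTR, 3192 bases long, holds 8 matches to a bipartite element described for IGF2BP3, CGGC followed after 15 to 25 bases by CA. Of 2733 3' UTRs of similar length, 2.56% hold as many, and 40.0% of all canonical 3' UTRs hold at least 1. Another such element, GGCA followed after 9 to 25 bases by CA, is in 81.2% of all and in each of the 8 listed genes, from 1 match in HMGA2 and ACTB to 29 in CDK6. Exons of CCND1 share 497 bases with LTO1 on the other strand, 10.3% of its exon length, and the strand setting of the counting was not stated. LTO1 itself had 8.86 CPM in siControl Input.

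CCND3 (ENSG00000112576, hg38 chr6:41934933-42050357, minus strand) encodes cyclin D3 and was scarce in Input, with 32, 19 and 26 counts in siControl and 24, 20 and 17.2 in siIGF2BP3. At this depth the log2 fold change in RNA, -0.22 ± 0.29 (edgeR adjusted p = 0.729), had an interval of -0.79 to 0.35. CCND3 footprints were more plentiful, with 14.4, 13.3 and 13.7 CPM in siControl, against 18.0, 15.3 and 15.1 CPM in siIGF2BP3. All siIGF2BP3 libraries lay above all siControl libraries. The RPF log2 fold change was 0.23 ± 0.09, with an unadjusted p of 0.0435 and an adjusted p of 0.294 in edgeR's fit across all genes, and without siIGF2BP3 replicate 1 it was 0.13 ± 0.05. TE differed by 0.44 ± 0.29 (adjusted p = 0.484), and by 0.35 ± 0.26 without that replicate. CDK6 and CCND3 were the 2 of 7 tested members whose RPF groups did not overlap, and they lay in opposite directions. Of all genes tested in RPF, 25.7% had groups that did not overlap, in either direction.

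Around these 3 genes, none of the 21 tested cyclins, kinases, inhibitors and RB-family or E2F genes of the G1 axis was called in RNA by edgeR with the main settings. With a mean of at least 5 CPM, with protein-coding genes only and without siControl Input replicate 1, 1 gene of the axis rose, and with the length offset 1 fell. Of 20 tested in RPF, E2F3, a transcription factor released by RB phosphorylation, fell from 14.6 ± 0.06 (SD, n = 2) to 9.94 ± 0.46 CPM (SD, n = 3), with a log2 fold change of -0.53 ± 0.07 (edgeR adjusted p = 0.0146), a call that 0.649% of all genes tested in RPF got in this direction. It was also the 1 gene of 20 called in TE, at -0.46 ± 0.11 (adjusted p = 0.0311), against 1.36% of all genes called lower in TE. The RPF call was lost without any one of the 3 siControl RPF libraries, without siIGF2BP3 RPF replicate 2 or 3, and on summing replicates 2 and 3 of siControl RPF. The TE call was lost in 14 of 26 alternatives. Without siIGF2BP3 RPF replicate 1, 3 genes of the axis rose and 5 fell in RPF, where 16.5% of all genes were called.

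CD44 (ENSG00000026508, hg38 chr11:35138870-35232402, plus strand), the cell-surface receptor for hyaluronan, was at the edge of detection. It had 1, 0 and 1 counts in siControl Input and 0, 2 and 3 in siIGF2BP3 Input. RPF held 2, 2 and 1 counts in siControl and 5, 3 and 2 in siIGF2BP3. With at most 5 counts in a library of at least 11219750, the gene failed the filter on low counts in every comparison, and no difference between conditions was detectable at this depth. Among 14 genes of CD44 partners and hyaluronan enzymes, EZR, which encodes ezrin, a linker of membrane proteins to actin, fell in RNA from 104 ± 5.27 to 91.2 ± 3.63 CPM (SD, n = 3 each; log2 fold change -0.23 ± 0.05, edgeR adjusted p = 0.0110). It was the 1 gene called of 9 tested in RNA, where 1.9% of all genes were called lower, and the call was lost without siControl Input replicate 3 or siIGF2BP3 Input replicate 3. In RPF, 2 of 10 tested genes fell, against 0.649% of all genes. CEMIP, a hyaluronan-binding protein that promotes hyaluronan breakdown, went from 147 ± 0.900 (SD, n = 2) to 110 ± 1.79 CPM (SD, n = 3; -0.40 ± 0.04, adjusted p = 0.00784). RDX, the ezrin relative radixin, went from 71.0 ± 1.05 to 54.7 ± 4.14 CPM (-0.35 ± 0.05, adjusted p = 0.0261). Both calls were lost without any one of the 3 siControl RPF libraries, without siIGF2BP3 RPF replicate 2, and on summing replicates 2 and 3 of siControl RPF. No gene of this list was called in TE by edgeR over all libraries. Without siIGF2BP3 RPF replicate 1, 2 rose and 4 fell in RPF and 2 rose and 1 fell in TE, in settings that called 16.5% and 10% of all genes.

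ACTB (ENSG00000075624, hg38 chr7:5527147-5563784, minus strand) encodes cytoplasmic beta-actin. Its 3' UTR of 600 bases holds, from its base 2, the bipartite element bound by the KH domains of IGF2BP1, which lies in the region known as the zipcode. It is shown because ACTB is the listed mRNA that passed the test. The search was for CGGAC followed after 10 to 25 bases by ACAC, where the leading base may also be C and the last may also be T, on the mRNA strand, and capitals mark both parts. Of all canonical 3' UTRs 4.85% hold such a pair, and of 2356 with a length like that of ACTB 3.10% do. None of the other 7 genes holds it in the 3' UTR.
ACTB, chr7:5527721-5527746, minus strand: CGGACtatgacttagttgcgttACAC

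ACTB Input was 4682, 4547 and 4548 CPM in siControl and 3918, 4104 and 4057 CPM in siIGF2BP3. Every siIGF2BP3 library was below every siControl library, an order that 5.73% of genes tested in RNA showed in this direction and 25% in either. The log2 fold change was -0.24 ± 0.04 (edgeR adjusted p = 0.00146), equal to 0.848 of the siControl level after edgeR's TMM scaling. The unscaled means were 4592 CPM in siControl and 4027 CPM in siIGF2BP3, a smaller fall. The ACTB difference passed the threshold in each of 16 alternatives, with adjusted p of at most 0.0119. ACTB was the 1 member called of 7 tested in RNA, where 5.96% of all 14759 genes tested were called and 1.9% were called lower. The other 6 tested members were at log2 fold changes of -0.22 to 0.01, and 6 of 7 were negative with a median of -0.11, against 49.5% negative and a median of 0.00 over all genes. Among genes with a mean of at least 200 CPM in Input, 75.6% were negative, with a median of -0.07. With an offset that removes a trend on gene length, HMGA2 (-0.13, adjusted p = 0.0425) and CDK6 (-0.19, adjusted p = 0.0102) passed as well, in a setting that called 7.31% of all genes.

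Abundant mRNAs as a group were lower in siIGF2BP3 Input, and ACTB is among the most abundant. Of the 102 genes with a mean of at least 1000 CPM in Input, 40.2% were called lower and 5.88% higher, with a median log2 fold change of -0.12 and 86.3% of them negative. The number called lower among these 102 was 41, and it ranged from 20 without siControl Input replicate 3 to 58 without siControl Input replicate 1. It was also at most 26 without siIGF2BP3 Input replicate 2 or 3. Of the 907 genes with at least 200 CPM, which include HMGA1, HMGA2, CDK6 and CCND1, 14.3% were called lower and 6.5% higher, with a median of -0.07. The part of abundance in the value of ACTB was not tested. In RNA 5 of the 8 hepatocyte markers fell too, by 0.19 to 0.29 on the log2 scale, and the summed level of the 8 was 56080 to 56750 CPM in siControl Input and 51480 to 51560 CPM in siIGF2BP3 Input. Their part in the result was likewise not tested. None of the 8 was called in RPF or TE by edgeR over all libraries. DESeq2 called 1 lower in RPF and 2 higher in TE, where it called 3.3% and 2.93% of all genes. Without siIGF2BP3 RPF replicate 1, 2 fell and 1 rose in RPF and 4 rose in TE, against 16.5% and 10% of all genes called.

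ACTB was not called in RPF. Its footprint level was 3612, 3631 and 3664 CPM in siControl and 4358, 3535 and 3443 CPM in siIGF2BP3, with siIGF2BP3 replicate 1 above and replicates 2 and 3 below all siControl libraries. The log2 fold change was 0.08 ± 0.10 (edgeR adjusted p = 0.786), and without replicate 1 it was -0.06 ± 0.02 (adjusted p = 0.112). TE differed by 0.32 ± 0.10 in the upward direction, with an interval of 0.11 to 0.52 and an unadjusted p of 0.00715, but missed the threshold after adjustment across all genes (adjusted p = 0.124). It passed with DESeq2 (adjusted p = 0.0447), where 2.93% of genes were called, without siIGF2BP3 RPF replicate 1 (0.18 ± 0.05, adjusted p = 0.0153), where 10% were, and without siIGF2BP3 RPF replicate 3 (0.38 ± 0.09, adjusted p = 0.0317), where 2.2% were. The ACTB difference in TE did not pass in the rest of the 26 alternatives, among them siControl RPF replicates 2 and 3 summed. It was 0.18 to 0.38 over the 26. ACTB had fractional counts in all 12 libraries, and 11 genes named as its pseudogenes together held 737 CPM in siControl RPF, or 20.3% of its own level, against 0.0203% in Input.

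Other actin genes were lower in Input as well. Of 22 genes for actins, actin regulators and myosin, ACTB included, 7 fell in RNA and none rose, with a median log2 fold change of -0.09. Over all genes 1.9% were called lower, and among those of at least 200 CPM 14.3%. MYL6, a myosin light chain, went from 574 ± 5.43 to 512 ± 7.56 CPM (SD, n = 3 each; -0.21 ± 0.04, edgeR adjusted p = 0.00267), and held in each of 16 alternatives. ACTG1, gamma-actin, went from 1559 ± 72.8 to 1398 ± 84.6 CPM (-0.21 ± 0.05, adjusted p = 0.0110), and its call was lost without siControl Input replicate 2 or siIGF2BP3 Input replicate 1. ACTG1 and ACTB encode near-identical proteins, and the treatment of reads shared between similar genes was not given. The number that fell was 3 without siControl Input replicate 3, and 4 without siControl Input replicate 2 or without siIGF2BP3 Input replicate 3. In RPF and TE none of the 22 was called in edgeR over all libraries with the main filter. DESeq2 called 1 lower in RPF, and 2 higher and 1 lower in TE. In TE edgeR called 1 lower with a mean of at least 5 CPM and with protein-coding genes only. Without siIGF2BP3 RPF replicate 1, 7 fell in RPF, and in TE 2 rose and 1 fell, against 16.5% and 10% of all genes called.

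**Figure D2:**
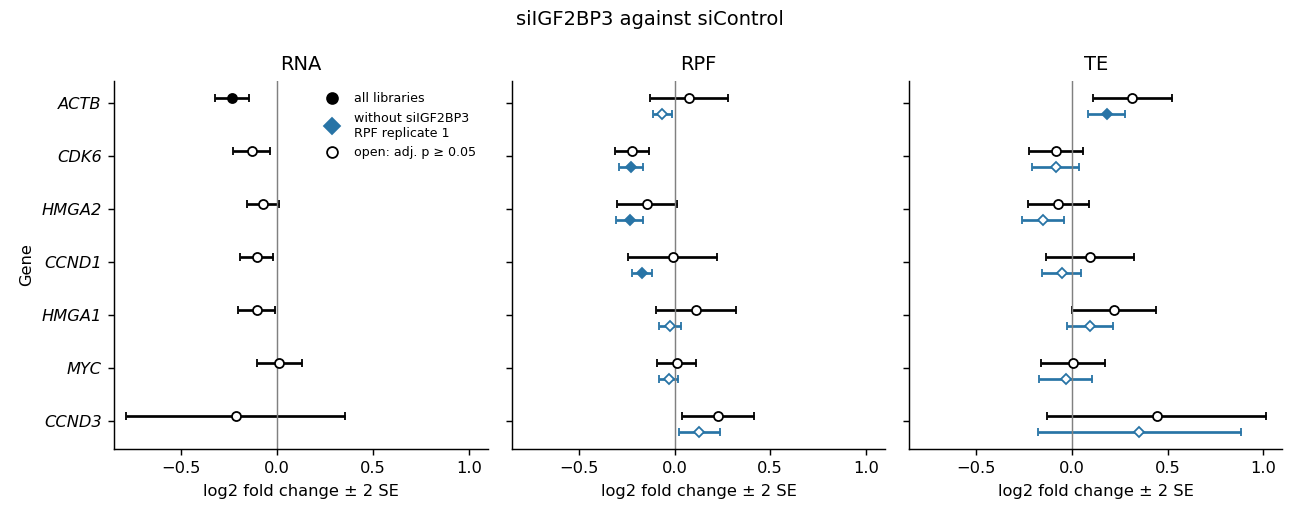
Log2 fold change of siIGF2BP3 against siControl with 2 SE on either side for the 7 tested genes, in RNA, RPF and TE; black circles use all libraries, blue diamonds leave out siIGF2BP3 RPF replicate 1, and filled symbols have an edgeR adjusted p under 0.05. With all libraries only ACTB in RNA (-0.24) is filled, and without the replicate CDK6, HMGA2 and CCND1 in RPF and ACTB in TE are.

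Across the members, then, no call was made in RPF (0 of 7 tested) or TE (0 of 7 tested) with edgeR, where 1.66% and 2.17% of all genes tested were called. At an unadjusted p under 0.05, CDK6 and CCND3 passed in RPF and ACTB in TE, a level reached by 16.1% and 15.9% of all genes tested, and DESeq2 called CDK6 in RPF and ACTB in TE. The members' median log2 fold change was 0.01 in RPF and 0.09 in TE, against 0.01 over all genes in both. The siIGF2BP3 RPF replicate 1 exceeded replicates 2 and 3 in 6 of the 7 members, all but CDK6. Relative to the siControl RPF mean, this replicate stood at 1.29 for CCND3, 1.24 for HMGA1, 1.20 for ACTB and 1.15 for CCND1. For CDK6 the 3 replicates stood at 0.832, 0.842 and 0.866, and for HMGA2 at 0.972, 0.844 and 0.845.

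**Figure D3:**
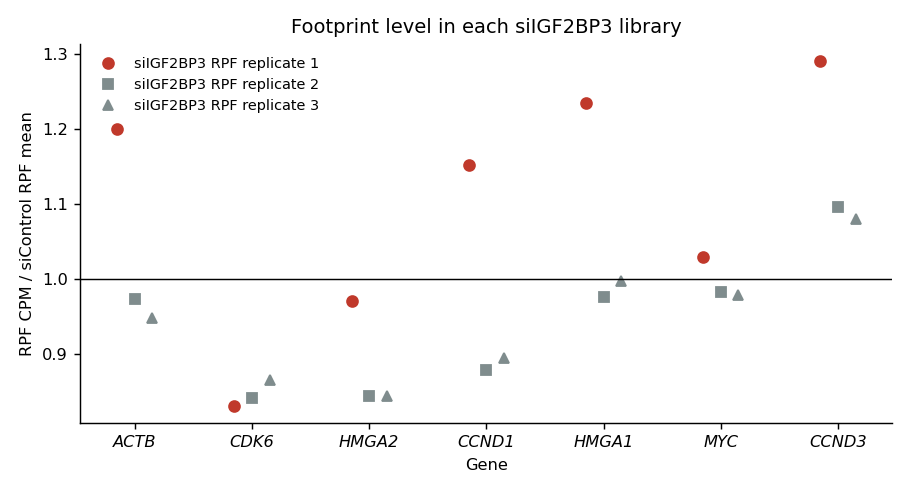
RPF CPM of each siIGF2BP3 library divided by the mean siControl RPF CPM of the same gene, for the 7 tested genes; the line at 1 is the siControl mean. Replicate 1 (red) is above the other libraries for each gene except CDK6, and for CDK6 all 3 libraries lie between 0.832 and 0.866.

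Footprints relative to Input differed far more between the listed genes than between the conditions. In siControl cells the ratio of RPF CPM to mean Input CPM was 7.08 ± 0.32 for CCND3 and 2.47 ± 0.00659 for MYC, the 2 members above 1 (SD over RPF samples, n = 2). It was 0.790 ± 0.00547 for ACTB, 0.445 ± 0.00950 for CCND1, 0.375 ± 0.00262 for HMGA1, 0.235 ± 0.00218 for CDK6 and 0.158 ± 0.00713 for HMGA2. Over 11516 protein-coding genes the median was 0.904 and the range from the 10th to the 90th percentile 0.254 to 2.88, so that HMGA2 and CDK6 lay below it and CCND3 above it. In edgeR's test of RPF against Input within siControl, relative to the typical gene, all 7 tested members were called, as were 89.9% of all genes tested. Log2 differences ran from 2.99 ± 0.14 for CCND3 to -2.52 ± 0.04 for HMGA2. That of ACTB, -0.18 ± 0.03, turned to 0.08 when the counts of its pseudogenes were added. That of HMGA1, -1.26 ± 0.04, was -0.72 with its pseudogene counts added, which is above that of CCND1 (-1.02), and -2.12 with them subtracted. In siIGF2BP3 cells the ratios were 9.28 ± 0.94 for CCND3, 2.37 ± 0.07 for MYC, 0.938 ± 0.13 for ACTB, 0.453 ± 0.07 for CCND1, 0.418 ± 0.06 for HMGA1, 0.212 ± 0.00440 for CDK6 and 0.143 ± 0.0118 for HMGA2 (SD, n = 3), in the same order.

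The 4 members with the lowest ratios also had the smallest coding share of the transcript, in the same order. That order depended on HMGA1, whose log2 difference passed that of CCND1 with pseudogene counts added and fell below that of CDK6 (-1.93) with them subtracted. Ribosomes protect the coding part, whereas Input reads can fall anywhere on the transcript. The canonical coding sequence takes up 7.94% of the transcript in HMGA2, 8.39% in CDK6, 16.7% in HMGA1, 20.9% in CCND1, 36.6% in MYC, 43.2% in CCND3 and 62.1% in ACTB, against a median of 49.2% over all genes. The CDK6 3' UTR alone measures 10219 bases beside 978 coding bases. With RPF taken per coding kb and Input per transcript kb, the siControl ratio was 1.99 for HMGA2, 2.13 for CCND1, 2.24 for HMGA1 and 2.81 for CDK6, against a median of 2.08 over all genes. HMGA2 thus moved from the 4.12 to the 48.0 percentile of all genes, CDK6 from 8.61 to 62.3, HMGA1 from 18.7 to 52.9 and CCND1 from 23.0 to 50.8. MYC, at 6.74, and CCND3, at 16.4, stayed high (from the 86.9 to the 89.3 and from the 98.8 to the 98.0 percentile), and ACTB, at 1.27, went from 44.5 to 30.7. These ratios rest on 1 transcript per gene, and for CCND3 on 77 Input counts summed over 3 siControl libraries. For MYC that transcript has 3721 bases, whereas the counts were made over 3001 exon bases. Over the counted bases MYC Input was 35.3 rather than 28.5 CPM per kb in siControl, which gives a ratio lower than 6.74. For HMGA2 the transcript has 4117 bases against 15403 counted, and for CCND3 2026 against 5802. Over the counted bases siControl Input was 27.8 rather than 104 CPM per kb for HMGA2, and 0.339 rather than 0.971 for CCND3. This gives ratios higher than 1.99 and 16.4, so the percentile of HMGA2 per length depends on the length chosen.

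**Figure D4:**
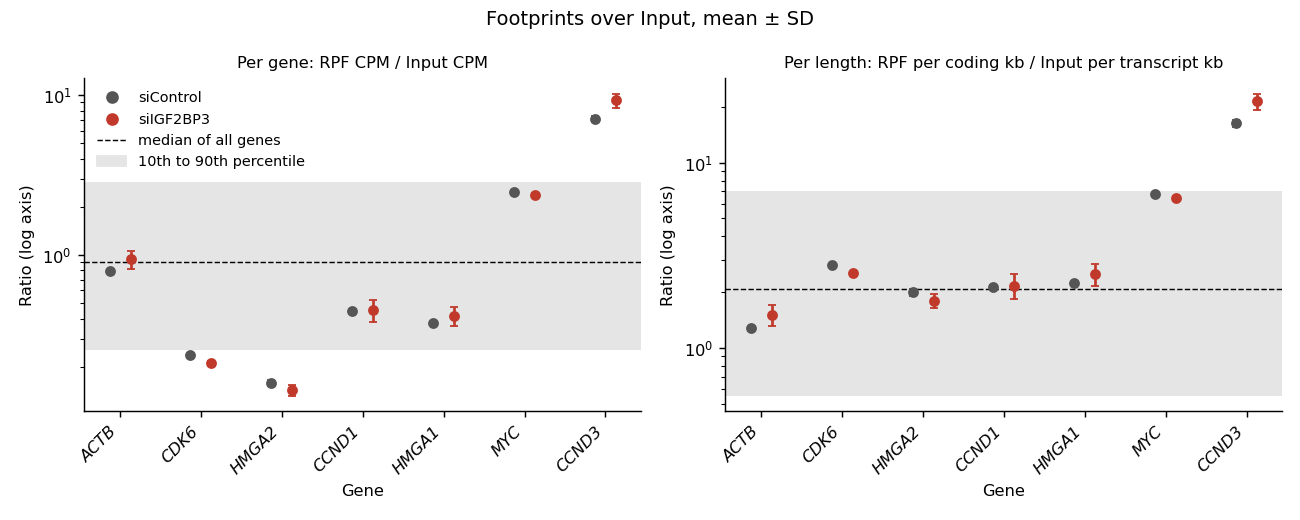
Footprints over Input on a log axis for the 7 tested genes, as RPF CPM over Input CPM (left) and as RPF per coding kb over Input per transcript kb (right); points are means and bars SD over the RPF samples of siControl (grey) and siIGF2BP3 (red), the dashed line is the median of 11516 protein-coding genes in siControl and the band their 10th to 90th percentile. HMGA2 and CDK6 lie below the band on the left and near the median on the right, while CCND3 lies above the band in both panels.

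Per length, ACTB was the most abundant member in siControl Input at 2534 ± 43.0 CPM per kb of transcript, followed by HMGA1 at 157 ± 6.06, HMGA2 at 104 ± 1.56, CCND1 at 78.7 ± 2.00, CDK6 at 53.8 ± 3.69, MYC at 28.5 ± 1.14 and CCND3 at 0.971 ± 0.32 (SD, n = 3). Each neighbour in that order was separated by more than the SDs. The place of HMGA2 depended on the length used. Per kb of deposited exon, siControl Input was 1305 CPM for ACTB, 129 for HMGA1, 69.1 for CCND1 and 51.2 for CDK6. It was 35.3 for MYC, 27.8 for HMGA2 and 0.339 for CCND3. Per coding kb, RPF stood at 3226 ± 22.3 CPM for ACTB, 351 ± 2.45 for HMGA1, 207 ± 9.34 for HMGA2, 192 ± 0.51 for MYC, 168 ± 3.58 for CCND1, 151 ± 1.40 for CDK6 and 15.9 ± 0.71 for CCND3 in siControl (SD, n = 2). In siIGF2BP3 the values of HMGA2, MYC and CCND1, 184 ± 15.2, 192 ± 5.43 and 164 ± 25.8 CPM per coding kb (SD, n = 3), did not differ beyond their spread. Dividing instead by the exon length of the deposited annotation put MYC second in siControl RPF, at 87.3 CPM per kb, ahead of HMGA1 at 48.4, CCND1 at 30.7, CDK6 at 12.1 and HMGA2 at 4.40.

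Among the other 21 reported IGF2BP target mRNAs on the list, 17 were tested in RNA and 1 was called, against 5.96% of all genes tested. IGF2, the fetal growth factor mRNA that gave the family its name, fell from 5942 ± 125 to 4674 ± 312 CPM (SD, n = 3 each; log2 fold change -0.39 ± 0.05, edgeR adjusted p = 1.27e-05), and held in each of 16 alternatives. It is in the class of at least 1000 CPM in Input, where 40.2% of genes were called lower and the median log2 fold change was -0.12. The part of abundance in its value was not tested. The median of the 17 was -0.08. No gene of the 16 tested in RPF or TE was called by edgeR with the main settings. In TE, 1 gene was called higher with DESeq2, RLE or upper-quartile factors, TMM factors over 12 libraries, a length offset and protein-coding genes only. The same count came with either replicate block and without siIGF2BP3 Input replicate 2 or siIGF2BP3 RPF replicate 2 or 3. With a mean of at least 5 CPM, 1 was called higher and 1 lower in TE.

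Leaving out siIGF2BP3 RPF replicate 1, which raised the share of all genes called to 16.5% in RPF and 10% in TE, gave calls in the remaining lists too. In RPF, 3 of the 5 proteins of the MYC determinant complex and 2 of 10 MYC partners fell, and of the 16 MYC targets 1 rose and 5 fell. Of the 10 HMG genes 4 fell in RPF, of the 10 let-7 and LIN28 genes 1 rose and 4 fell, and of the 16 other IGF2BP targets 1 rose and 1 fell. In TE each of these lists had at most 1 gene called in either direction.

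Over the 12 libraries, with log2(CPM + 0.5) centred within each assay, the gene most alike to ACTB among 9796 genes was INS-IGF2, a readthrough transcript that shares exons with IGF2, with a Pearson r of 0.97. For CDK6 it was DDAH1 (r = 0.95), for HMGA2 ESRRA (0.95), for HMGA1 CCDC86 (0.97), for CCND1 OBSL1 (0.96), for MYC NAALADL1 (0.91) and for CCND3 PEG10 (0.92), itself a reported IGF2BP target. These correlations describe 12 libraries that share their 4 groups and the 1 library that stood apart.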

How the data were processed

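The deposited values are expected counts per gene, not scaled to depth, one table per library. Per the labels and the study's methods, the authors used cutadapt for trimming, STAR for alignment to the hg38 genome and featureCounts for counting reads in genes. Versions, strand setting and the treatment of shared reads are not given in the sources used here. Between 31.8% and 33.3% of detected genes in Input and between 63.2% and 66.0% in RPF held fractional values, so genes with near-identical copies are uncertain. Gene symbols, canonical transcripts and 3' UTRs came from GENCODE release 44, which matched 99.2% of 58721 identifiers.

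Groups and replicate numbers came from the sample labels. Counts were rounded and tested with edgeR 4.0.16 (R 4.3.3) by quasi-likelihood with filterByExpr, TMM factors (computed separately by assay for TE) and Benjamini-Hochberg adjustment over all genes tested, at a threshold of 0.05. RNA used 6 Input libraries, RPF 6 RPF libraries and TE the interaction over 12. The study's methods name DESeq2 for TE, and DESeq2 1.42.0 and limma 3.58.1 were alternatives. The scripts were tested on simulated data. CPM is unscaled by TMM factors, and an RPF over Input ratio divides each RPF library by the mean Input of its condition. Reads carried no molecular identifiers, and the spread between libraries is the error used. Low counts of CD44 and CCND3 limit what could be detected.

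The members and gene lists were chosen with earlier results of these data known. Named genes are the members, the IGF2BP genes, the gene most alike to each member (at least 5 CPM in each assay), and per list and comparison up to 3 called genes with the largest change. The gene lists cover the MYC complex, partners and targets, the G1 axis, HMG proteins, let-7 and LIN28, CD44 partners, actin genes, other IGF2BP targets and cell type markers. The abundance classes of at least 200 and 1000 CPM were added after the values were seen.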

Additional observations from a re-analysis of the deposited data

How the results depend on the processing

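The ACTB call in RNA was kept under every alternative run. The 7 members called in siControl RPF against Input were called under every alternative except a mean of at least 5 CPM, which left CCND3 untested and 6 called, and ACTB was called in the opposite direction with pseudogene counts added. In RNA the number of members called was 3 with a length offset (HMGA2, CDK6 and ACTB). In RPF it was 1 with DESeq2 and ranged from 0 to 3 when libraries were left out in turn. In TE it was 1 with DESeq2 and ranged from 0 to 1. The direction turned for values near 0. MYC in RNA was -0.003408 with a length offset, -0.0005961 with upper-quartile factors and -0.0526 to 0.0767 with a library left out. MYC in RPF was -0.0110, -0.004057 and -0.0313 to 0.0375 in the same settings, and in TE it was -0.004757 with TMM factors over 12 libraries, -0.0243 with a length offset, -0.0585 with limma and -0.0615 to 0.0683 with a library left out. With a library left out, CCND3 in RNA ranged from -0.47 to 0.003804, HMGA1 in RPF from -0.0231 to 0.19, CCND1 in RPF from -0.17 to 0.0708, ACTB in RPF from -0.0628 to 0.15 and CCND1 in TE from -0.0538 to 0.17. CCND1 in RPF was 0.002347 with a mean of at least 5 CPM, HMGA2 in TE 0.004608 with a length offset, and ACTB in RPF against Input 0.0837 with pseudogene counts added. The cause was not tested. The replicate block left the members called at 1 in RNA, 0 in RPF, 0 in TE and 7 in RPF against Input. Deviations of same-numbered libraries correlated at -0.133 to 0.115, so the main tests did not pair libraries by number. Limma on log2 ratios and a replicate block for each culture, both alternatives in TE, did pair Input and RPF libraries by number. Lengths from a protein table were not used here, and GENCODE coding lengths, chosen after seeing the data, took their place.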
